A study of Mus musculus with 7 samples.

Results

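The smallest CTCF library of the series, prepared from 27000 mouse liver cells (27k), held 9110 peaks, and these were compared with the 163335 peaks of the library prepared from 270000 liver cells (270k). All 9110 peaks were taken, out of 2603994 in the 7 libraries of the series, and they were sorted by genomic place, by the number of tags in each peak and by the spread of those tags. Both libraries were ChIP-exo 5.0 of wildtype liver with an antibody to CTCF (Millipore 07-729), and 1 library was made on each side, so no replicate error could be given. The mice were adult males of 16 weeks. The formaldehyde used for fixation is given as 0.3% in the labels and as 1% in the published methods. The labels' extraction text names IgG as the antibody, whereas the antibody field names CTCF. How many animals were pooled, and whether the liver libraries came from aliquots of 1 chromatin preparation, was not given in the sources used here. All intervals below are 95% intervals (Wilson for shares, exact binomial for ratios, Newcombe for differences between shares), and they cover counting error only.

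CTCF is a zinc-finger protein that binds a long DNA motif and, with the cohesin ring, holds the ends of chromatin loops. In ChIP-exo, lambda exonuclease trims crosslinked DNA from its 5′ ends until it meets the protein, so each sequenced tag marks a stop, and a bound site gives stops on the forward strand to its left and on the reverse strand to its right. A forward peak followed within a short distance by a reverse peak is called a pair here, with a gap of 10 to 80 bp between them. A peak was called spread when its tags lay at more than 1 position (a deposited standard deviation above 0 bp) and one-position when they all lay at the same base. The authors had removed PCR duplicates, defined by identical sequences of both reads, but copies that escaped this step and independent stops at the same base give the same one-position peak and cannot be told apart in these lists.

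The sequence could be read in promoters only, and a small part of the 9110 peaks fell there. That part was not compared with the promoters' share of the genome. The RefSeq promoter windows of GRCm38.p6 (300 bases, 250 before the transcription start to 50 after it) were searched on both strands for CCANNAGNNGGC, a core of the CTCF motif. The letters were found in 2.43% of all 32817 windows. A peak of 27k cells lay in 83 windows, of which 5 held the motif (6.02%, 2.60 to 13.3). The 22 windows whose peak lay near a peak pair of the library of 2700000 liver cells (2.7M; within 100 bp of the pair's centre) held it in 4 cases (18.2%, 7.31 to 38.5), and the other 61 windows in 1 (1.64%, 0.290 to 8.72). The 4 include a pair of overlapping Pdzd9 windows with the same motif and peaks, and counted by gene they are 3 of 21 (14.3%, 4.98 to 34.6). The same split was seen in 270k cells, with 162 of 788 windows (20.6%, 17.9 to 23.5) near a pair and 17 of 1149 (1.48%, 0.926 to 2.36) elsewhere. Of all 1654 windows with a pair of 2.7M cells, whether or not they held a peak of these libraries, 269 held the motif (16.3%, 14.6 to 18.1). The share of 27k cells near a pair therefore cannot be told from that of the pairs themselves. Among the windows with most tags, Pdzd9 and Gm30107 held an exact match of the motif. They are shown first, in capitals for the motif, followed by Ap4e1 (a subunit of the adaptor complex AP-4) and Hjurp (the chaperone that deposits the centromeric histone CENP-A), in capitals for the bases under the peak of 27k cells. The latter were picked, after their values were seen, because their peak was spread and a same-strand peak of 270k cells lay within 10 bp.

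Pdzd9, chr7:120670201-120670500, minus strand: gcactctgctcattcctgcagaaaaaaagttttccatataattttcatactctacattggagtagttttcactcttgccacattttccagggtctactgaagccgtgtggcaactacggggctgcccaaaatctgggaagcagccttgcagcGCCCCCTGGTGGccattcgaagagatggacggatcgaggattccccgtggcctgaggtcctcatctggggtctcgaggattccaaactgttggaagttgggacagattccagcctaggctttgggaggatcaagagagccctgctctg
Gm30107, chr8:114081091-114081390, minus strand: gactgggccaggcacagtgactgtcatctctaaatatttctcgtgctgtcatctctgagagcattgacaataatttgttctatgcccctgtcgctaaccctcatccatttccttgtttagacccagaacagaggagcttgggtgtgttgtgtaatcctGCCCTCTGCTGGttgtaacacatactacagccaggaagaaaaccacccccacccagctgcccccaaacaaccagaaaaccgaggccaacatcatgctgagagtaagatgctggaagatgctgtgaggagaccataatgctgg
Ap4e1, chr2:127008461-127008760, plus strand: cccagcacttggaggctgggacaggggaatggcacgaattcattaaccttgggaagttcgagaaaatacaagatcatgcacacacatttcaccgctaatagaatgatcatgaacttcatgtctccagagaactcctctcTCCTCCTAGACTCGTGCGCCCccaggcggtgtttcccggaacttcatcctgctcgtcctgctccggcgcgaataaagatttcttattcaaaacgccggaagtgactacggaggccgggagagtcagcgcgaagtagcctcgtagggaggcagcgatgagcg
Hjurp, chr1:88277530-88277829, minus strand: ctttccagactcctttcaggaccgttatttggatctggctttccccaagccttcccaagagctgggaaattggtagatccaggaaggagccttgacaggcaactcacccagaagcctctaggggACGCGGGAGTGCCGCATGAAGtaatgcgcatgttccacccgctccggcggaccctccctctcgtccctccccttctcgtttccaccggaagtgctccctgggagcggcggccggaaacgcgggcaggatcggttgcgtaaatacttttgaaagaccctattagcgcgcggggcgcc

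In the Pdzd9 window, 27k cells gave 2 one-position peaks of 2 tags each. They flanked the motif on opposite strands, at -61 bp and 44 bp from its centre, counted along the gene's strand. In 270k cells the peaks with most tags were spread and lay closer, with 15 tags at -17 bp on the gene's strand and 6 tags at 22 bp on the other. The whole window held 4, 31 and 504 tags in 27k, 270k and 2.7M cells. The Gm30107 window held a single one-position peak of 4 tags in 27k cells, at -80 bp, beside 10 and 150 tags in the larger libraries. Ap4e1 had the most tags of the promoter windows near a pair, 8 in a single spread peak, with 34 and 402 in the larger libraries, and Hjurp held 6, 57 and 492. The other named windows near a pair held 1 peak of 27k cells each, with 7 tags at Idh1 (an isocitrate dehydrogenase; 10 and 73 tags in the larger libraries) and Pcbp2 (an RNA-binding protein; 3 and 56), 6 at Prmt3 (an arginine methyltransferase; 10 and 328), and 5 at Tctn3 (2 and 81) and Zfp219 (0 and 25). Of these only the peak at Pcbp2 was spread. Cbl, a ubiquitin ligase named after its values were seen, also held the motif, with 1 spread peak of 2 tags centred 9 bp from the motif's centre.

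By genomic place, the tags of the smallest library fell unevenly against those of the larger one. It held 35594 tags (2 to 227 per peak) against 640635, a ratio of 18.0 (17.8 to 18.2) for a ratio of cells of 10. Sequencing depth and number of cells cannot be told apart here. Single tags are not listed, so this and the ratios below are of listed tags only. Places of 3 kinds were then set aside: chrM, the unplaced contigs, and the 6 bins of 10 kb with 20 or more peaks in both libraries. These dense bins were chosen by their number of peaks, so that they hold many is no finding. Together the set-aside places held 2168 peaks and 12802 tags of 27k cells, 36.0% (35.5 to 36.5) of its tags, against 23.5% of the tags of 270k cells. This order was reversed in a calculation at equal tags, chosen after seeing the data. The library of 270k cells was thinned to the same 35594 tags, and peaks under 2 tags were dropped. The set-aside places would then be expected to hold 48.5% of its tags, more than in 27k cells. The calculation treats tags as independent, which one-position peaks may not be, and why the order differs was not tested. The remaining chromosomes held 6942 peaks and 22792 tags against 156764 peaks and 489999 tags.

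**Figure D1:**
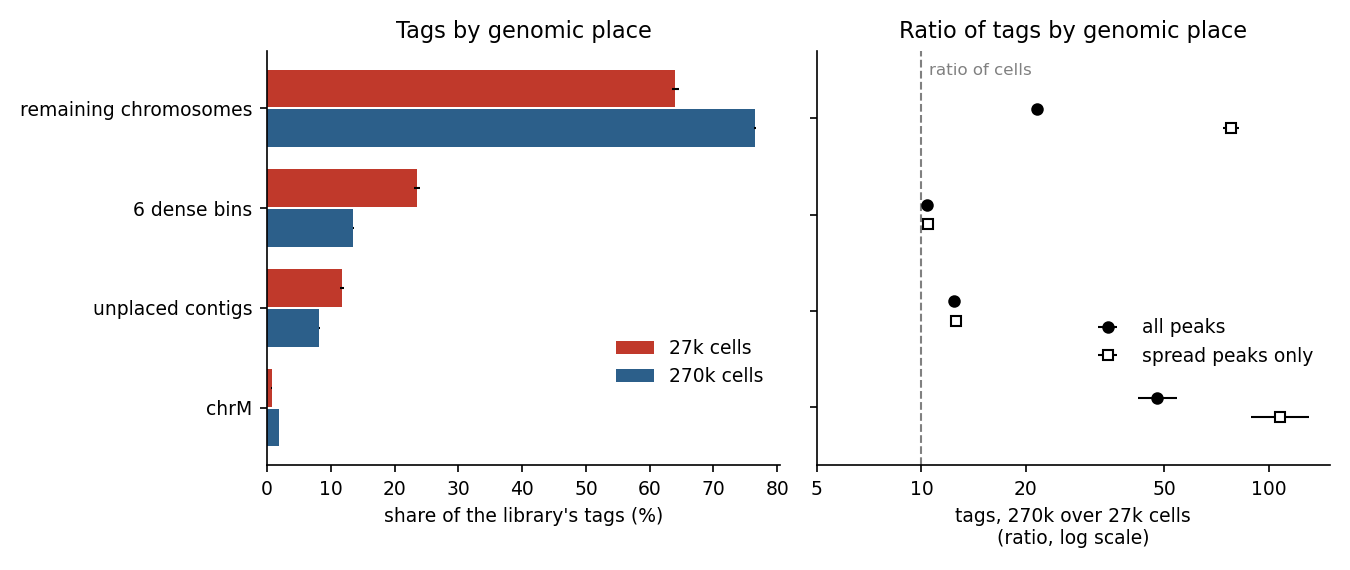
Share of each library's tags by genomic place (left, bars with 95% Wilson intervals) and tags of 270k cells divided by those of 27k cells (right, log axis, 95% exact intervals; filled circles for all peaks and open squares for spread peaks; the dashed line marks the ratio of cells, 10). The dense bins lie at 10.4 for both, whereas the remaining chromosomes lie at 21.5 for all peaks and 77.9 for spread peaks.

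The ratio of tags was 10.4 (10.1 to 10.6) in the dense bins and 12.4 (12.1 to 12.8) on the unplaced contigs, but 21.5 (21.2 to 21.8) on the remaining chromosomes and 47.8 (42.2 to 54.5) on chrM. The tags of chrM fell to 246 in 79 peaks, 0.691% of the library, from 11771 in 1169 peaks, 1.84%. When only spread peaks were counted the ratio stayed at 10.4 in the dense bins and 12.5 on the contigs. It rose to 77.9 (73.9 to 82.2) on the remaining chromosomes, where 423 spread peaks faced 32919, and to 108 (89.0 to 131) on chrM. In the calculation at equal tags, 1894 of the 32919 would be expected to remain listed. Some of the 1894 may then have all tags at 1 position. Among the 21 remaining chromosomes the ratio of peaks ran from 18.5 on Y to 24.5 on chromosome 4, and the interval of every one held the ratio over all, 22.6.

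The dense bins lay at only 3 loci. There, 4 adjoining bins cover chr9:3000001-3040000, at the first assembled bases next to the gap that stands for the centromere, and the others are chr2:98660001-98670000 and chr14:19410001-19420000. They held 104 to 266 peaks each in 27k cells, and their ratios of tags ran from 9.44 (9.09 to 9.80) on chr2, with 3029 against 28584 tags, to 11.5 (10.8 to 12.2) on chr9. The only gene annotated in them was the microRNA gene Mir101c. Of the contig tags, 89.6% lay on 1 contig, chrUn_JH584304, with 890 peaks, and 87.8% did in 270k cells.

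Just under the limit of 20 peaks was the bin chr9:35300001-35310000 in Gm33838, with 19 peaks and 265 tags against 20 peaks and 2611 tags, a ratio of 9.85 (8.68 to 11.2). Chl1, which encodes a neural adhesion protein, held 12 peaks in its bin on chr6 with a ratio of 11.5 (9.19 to 14.5). The bin on chr17 of AY036118 and Rn18s-rs5, which are related to ribosomal RNA, held 11 peaks against 216, with a ratio of 20.4 (14.8 to 29.0). The bin on chr1 of Gm10222 and Gm10925, a place known to hold a nuclear copy of mitochondrial DNA, held 8 peaks against 312 and 17 tags against 2040, a ratio of 120 (74.8 to 206). It is the bin of the 12 with most peaks that fell furthest, beside chrM at 47.8. Elsewhere the peaks of 27k cells mostly stood alone, with 6570 bins of 1 peak, 138 of 2 and 11 of 3 or 4.

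**Figure D2:**
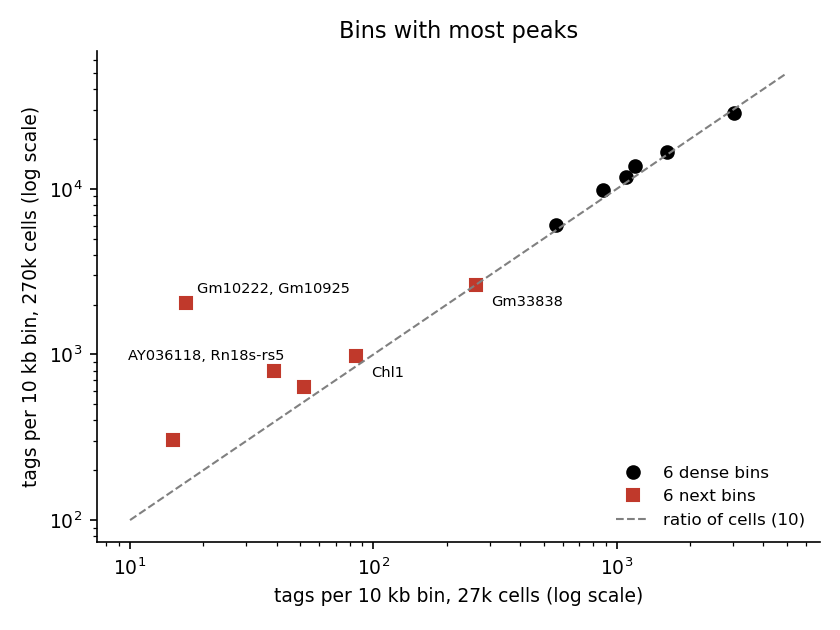
Tags in the 12 bins of 10 kb with most peaks of 27k cells (horizontal log axis) and in 270k cells (vertical log axis); circles are the 6 dense bins, squares the next 6, named by their genes where annotated, and the dashed line is the ratio of cells. The dense bins, Gm33838 and Chl1 lie along the line at ratios of 9.44 to 11.5, and the bin of Gm10222 and Gm10925 lies above it at 120.

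On the remaining chromosomes nearly every peak of the smallest library had all its tags at 1 base. One-position peaks were 6519 of 6942 (93.9%, 93.3 to 94.4), against 79.0% of the 156764 peaks of 270k cells, a difference of 14.9 percentage points (14.3 to 15.5). In the set-aside places they were 110 of 2168 (5.07%, 4.23 to 6.08) against 4.95%. Within these, the dense bins had 2.40% and chrM 54.4% (43.5 to 65.0), against 1.37% on chrM in 270k cells.

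The difference held at equal tags per peak. Of peaks with 2 tags, 90.3% were one-position in 27k cells and 74.9% in 270k, of those with 4 tags 97.5% and 87.0%, and of those with 5 to 9 tags 97.7% and 80.2% (a difference of 17.5 points, 16.4 to 18.4). At 10 tags or more the share was 9 of 26 (34.6%, 19.4 to 53.8) against 60 of 678 (8.85%, 6.94 to 11.2). One-position peaks went no higher than 11 tags in 27k cells and 17 in 270k, and spread peaks reached 37 and 472. In the set-aside places the order was the other way at 2 tags, with 11.0% (8.76 to 13.6) in 27k cells and 29.2% (26.1 to 32.5) in 270k. The median standard deviation of spread peaks with 2 tags was 2 bp in 27k and 3 bp in 270k cells on the remaining chromosomes, and 2.5 bp in both in the set-aside places. For spread peaks of 10 or more tags on the remaining chromosomes the order was the other way, with 4.88 bp in 27k and 3.84 bp in 270k cells. The 17 such peaks of 27k cells lay at 4 loci, 15 of them in 10 kb bins of 5 or more peaks. Neighbouring peaks of the same locus were thus counted separately, here and among the 26 above.

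**Figure D3:**
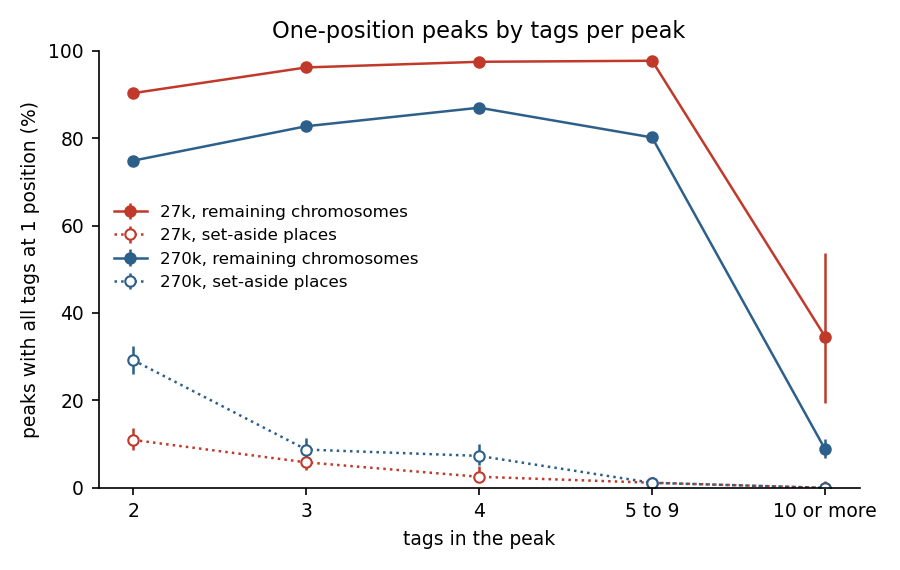
Percentage of peaks with all tags at 1 position (vertical axis, 95% Wilson intervals) by the number of tags in the peak (horizontal axis), for 27k (red) and 270k cells (blue); filled points are the remaining chromosomes and open points the set-aside places. On the remaining chromosomes 27k cells lie higher in every class, from 90.3% at 2 tags to 97.7% at 5 to 9, whereas the set-aside places stay at 29.2% or less.

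Whether the peaks lay near a peak pair of a deeper library was examined with the 129688 pairs of 2.7M liver cells, a library that neither side of the comparison used. The pairs were defined by strand and gap alone, and whether each is a CTCF site was not tested. On the remaining chromosomes 749 of 6942 peaks of 27k cells (10.8%, 10.1 to 11.5) lay within 100 bp of a pair's centre, and 1.17% did after the peaks were moved by 5 kb. In 270k cells 21.7% did. The 2 classes differed widely. Of the spread peaks 186 of 423 lay near a pair (44.0%, 39.3 to 48.7, and 3.90% when moved), and of the one-position peaks 563 of 6519 (8.64%, 7.98 to 9.34, and 0.997% when moved).

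Between the libraries the one-position peaks differed by no more than counting error on this measure, with 8.64% against 9.29% (a difference of -0.66 points, -1.34 to 0.07). The spread peaks differed beyond it, with 44.0% against 68.5% (a difference of -24.5 points, -29.2 to -19.7). For spread peaks the share climbed with tags in 27k cells, from 33.2% at 2 tags over 52.5% at 3, 66.7% at 4 and 79.3% at 5 to 9 to all 17 peaks of 10 tags or more. These 17 peaks lay at 4 loci only, 10 of them in Gm33838, 3 in Chl1, 3 on chr12 and 1 in Flt1, so neighbouring peaks of the same locus were counted separately. In 270k cells the same steps were 57.8%, 75.5%, 82.5%, 89.2% and 97.1%. The one-position share was 7.80%, 8.07% and 8.25% at 2, 3 and 4 tags and 11.5% (9.80 to 13.4) at 5 to 9.

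Some of the spread peaks of the smallest library came from a few crowded places. The 6 bins next in number of peaks held 61 of its peaks, 45 of them spread, and every one of the 61 lay near a pair. Pairs of 2.7M cells lie close together there, since the 129688 pairs fall to 129380 without these bins. The share of positions there that lie near a pair was not measured, so no conclusion is drawn from the 61. These bins include that of AY036118 and Rn18s-rs5 and that of Gm10222 and Gm10925, named above. Without them, 141 of 378 spread peaks (37.3%, 32.6 to 42.3) and 547 of 6503 one-position peaks (8.41%, 7.76 to 9.11) lay near a pair. The differences from 270k cells were then -30.6 points (-35.4 to -25.6) for spread peaks and -0.87 points (-1.54 to -0.15) for one-position peaks, so the latter interval no longer held 0. Pairs of the organ libraries, which are fewer, gave smaller shares of the 6942 peaks. They ran from 4.28% with the 10800 pairs of brain to 1.84% with the 1669 pairs of the liver organ library. With brain 297 peaks lay near a pair, against a mean of 8 when moved, and with the liver organ 128 against 2.5. With pairs of 2.7M cells it was 749 against 81.5.

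**Figure D4:**
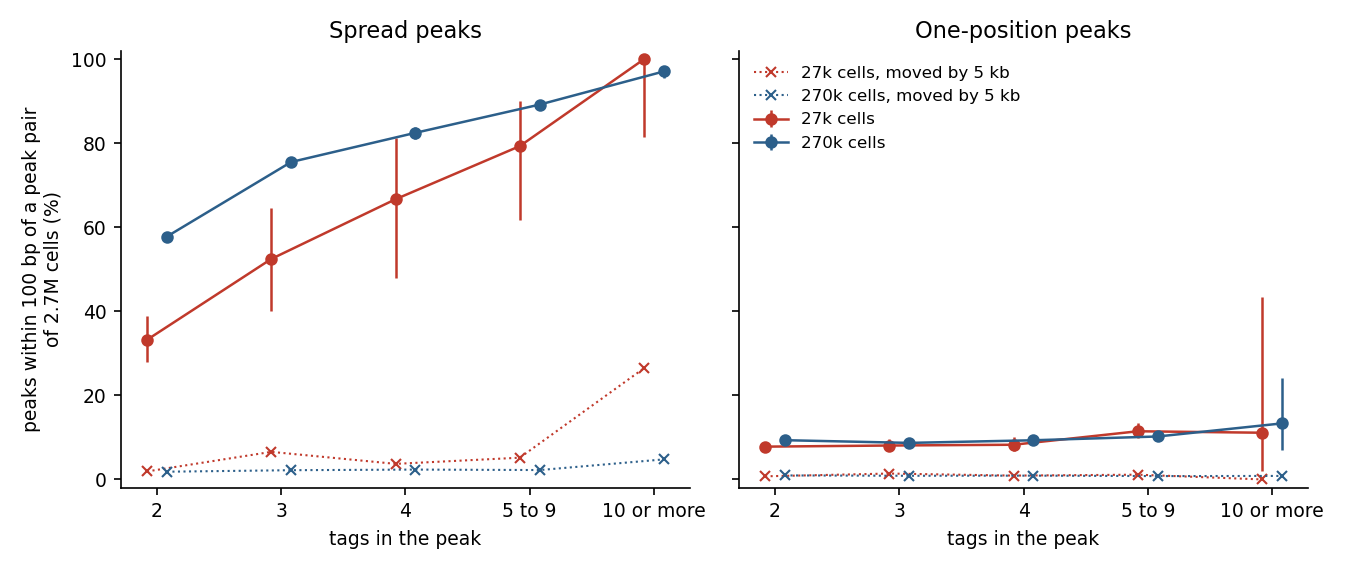
Percentage of peaks on the remaining chromosomes within 100 bp of a peak pair of 2.7M cells (vertical axis, 95% Wilson intervals) by tags in the peak (horizontal axis), for spread peaks (left) and one-position peaks (right) of 27k (red) and 270k cells (blue); crosses give the same peaks moved by 5 kb. Spread peaks climb with tags in both libraries, from 33.2% to 100% in 27k cells, and one-position peaks stay between 7.80% and 13.3%. The moved spread peaks of 10 tags or more in 27k cells, at 26.5%, are a mean of 4.5 of 17 peaks.

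The peaks near a pair kept the strand order of the exonuclease stops. In 27k cells the median forward peak lay at -11 bp from the pair's centre and the median reverse peak at 9.5 bp, against -12 and 13 bp in 270k cells. Of the 749 peaks, 293 (39.1%, 35.7 to 42.7) lay within 10 bp of the pair's stop on their own strand and 165 (22.0%, 19.2 to 25.1) within 10 bp of the opposite stop. The shares in 270k cells were 36.4% and 22.1%. Spread peaks lay on their own stop in 52.7% (45.5 to 59.7) of cases and one-position peaks in 34.6% (30.8 to 38.7), with 20.4% and 22.6% on the opposite stop. Without the 6 crowded bins the spread share was 50.4% (42.2 to 58.5).

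**Figure D5:**
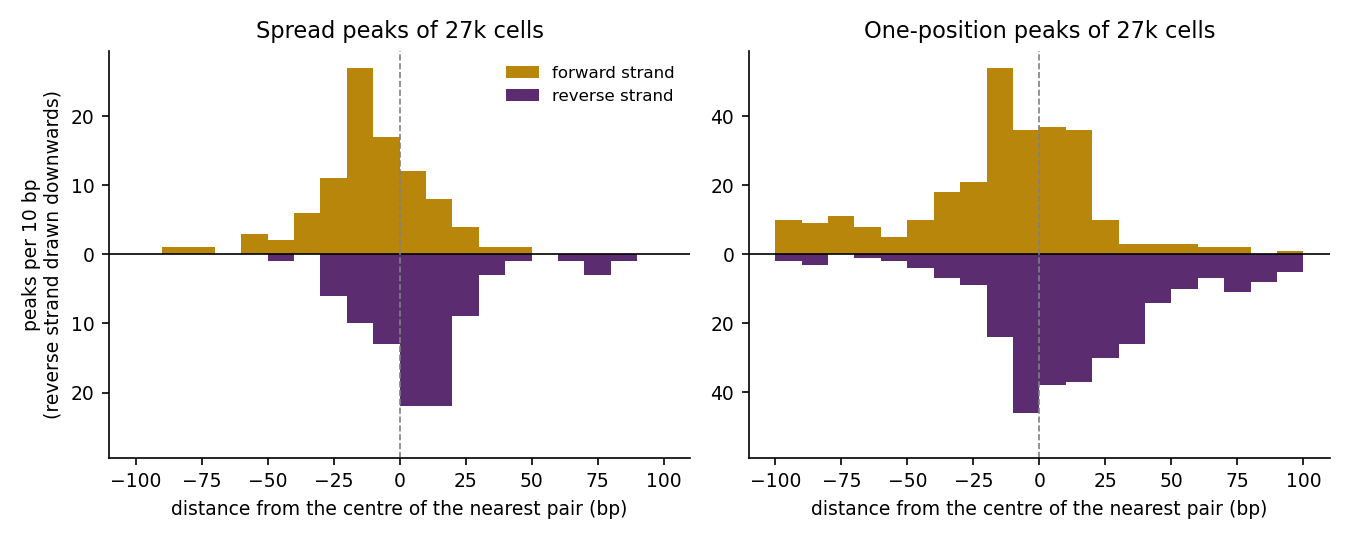
Number of peaks of 27k cells per 10 bp (vertical axis, reverse strand drawn downwards) by position relative to the centre of the nearest pair of 2.7M cells (bp, horizontal axis), for 186 spread peaks (left) and 563 one-position peaks (right). Forward peaks lie mostly left and reverse peaks mostly right of the centre, with 69.4% of the spread and 64.5% of the one-position peaks on their outer side.

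Looked at from the pairs, 1798 of the 129688 had a listed tag of 27k cells within 100 bp (1.39%, 1.32 to 1.45), against a mean of 129 when the peaks were moved. In 270k cells 49439 did (38.1%), against 2441 moved. Neighbouring pairs can share a peak, so these counts exceed the number of peaks. The share reached rose with the tags of the pair, from 0.548% of pairs with 4 to 9 tags to 2.51% at 20 to 49 and 5.64% (4.86 to 6.54) at 100 or more. In 270k cells it rose from 18.8% to 61.3% and 86.2%. Of the 1798 pairs reached by 27k cells, 1334 (74.2%, 72.1 to 76.2) were also reached by 270k, against 685 if the libraries reached pairs independently. Both reached pairs with many tags more often, which raises the overlap. Among pairs of 100 or more tags it was 154 of 164, against 141, and among those of 4 to 9 tags 151 of 331, against 62.2. The 10 pairs with most tags of 27k cells within 100 bp, 63 to 168, lay at 3 places only, 8 in Gm33838, 1 in Chl1 and 1 on chr12.

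Single peaks were rarely found again. A peak of 270k cells lay on the same strand within 10 bp of 224 of the 6942 peaks (3.23%, 2.84 to 3.67), against a mean of 5.5 peaks when moved. For spread peaks it was 119 of 423 (28.1%, 24.1 to 32.6), and for one-position peaks 105 of 6519 (1.61%, 1.33 to 1.95). With 10 or more tags, 16 of 17 spread peaks, at the 4 loci named above, were found in 270k cells and 0 of 9 one-position peaks (upper limit 29.9%). In the set-aside places the share was 80.1% in the dense bins, 80.8% on the contigs and 84.8% (75.3 to 91.1) on chrM. Peaks of 270k cells are so close together there that 42.0% of all positions in the dense bins, 20.2% on the contigs and 70.3% on chrM have a same-strand peak within 10 bp. In the other direction, 226 of the 156764 peaks of 270k cells (0.144%) had a peak of 27k, which rose to 53 of 95 (55.8%, 45.8 to 65.4) for its spread peaks of 20 tags or more.

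Over the other 6 libraries, 6216 of the 6942 peaks (89.5%) had no same-strand peak within 10 bp in any, and 98.8% of moved peaks had none. Of the one-position peaks 92.0% (91.4 to 92.7) were in no other library, and of the spread peaks 51.1% (46.3 to 55.8). There were 42 peaks found in all 6 others, 39 of them spread, and 20 of the 42 lay in the crowded bins.

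The peaks with most tags differed between the classes in what the other libraries held. The 10 spread peaks with most tags, 14 to 37, all lay near a pair and had tags in every other library within 100 bp. In Gm33838 lay 7 of them, where the first had 37 tags against 472 in the same-strand peak of 270k cells, and the others lay in Chl1, in Flt1 (a receptor of vascular endothelial growth factor) and on chr12 far from any gene. The 10 one-position peaks with most tags, 9 to 11, lay at separate places, 8 of them inside a gene. Of all one-position peaks of 27k cells on the remaining chromosomes, 52.7% did. Of the 10, 7 had no listed tag in any other library within 100 bp, among them peaks of 11 tags in Skint5 and Arhgef10l. Single tags are not listed. Only 2 of the 10 lay near a pair. They were a peak of 10 tags close to Cacng3, an auxiliary subunit of glutamate receptors, with 75 tags of 2.7M cells in the window and 0 of 270k, and a peak of 9 tags in Camk2b, a calcium-dependent kinase, with 91 and 2.

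Within the smallest library itself, 22 pairs of a forward and a reverse peak were found on the remaining chromosomes, with a median gap of 30 bp, against 4223 in 270k cells. With the set-aside places kept in there were 632. The 22 pairs lay at 10 places. In Gm33838 (chr9:35305245-35305603) lay 8, with 265 tags against 2576, a ratio of 9.72 (8.56 to 11.1). In Chl1 lay 4 (chr6:103649057-103649293), with 85 against 974 (11.5, 9.17 to 14.5), and 3 on chr12:3109892-3110038, with 63 against 641 (10.2, 7.85 to 13.4). Single pairs lay in Flt1, in Ank1 (the ankyrin of red cells), in 2210408I21Rik, near Pak3 (a p21-activated kinase) and near AY036118. Another lay on chr1 in the bin of Gm10222 and Gm10925, named above, 25724 bp from Col19a1. The ratios were 5.33 in Flt1, 8.17 in Ank1, 8.43 in 2210408I21Rik, 8.45 near Pak3 and 0.875 (0.270 to 2.76) near AY036118. The pair in the bin of Gm10222 and Gm10925 had 4 tags against 12, a ratio of 3 (0.909 to 12.8), where the whole bin had 120. The last single pair, on chr1 at 16900 bp from Ivns1abp, had 11 tags in 2 one-position peaks and no listed tag in any other library within 100 bp. Without the 6 crowded bins 5 pairs were left.

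Peaks of the smallest library lay at gene ends slightly more often than the same peaks when displaced, and inside genes as often. Of its 6942 peaks, 527 (7.59%, 6.99 to 8.24) lay within 1 kb of a gene's end, against 6.41% when moved, and 52.6% lay inside a gene, against 52.8%. Among the 749 peaks near a pair the share at gene ends was 14.3% (12.0 to 17.0), against 15.5% in 270k cells (a difference of -1.26 points, -3.62 to 1.45), and among the others 6.78% against 7.33% (a difference of -0.55 points, -1.17 to 0.12). At least 1 peak within the gene or 1 kb around it was found at 9.69% of all 34627 genes in 27k cells and at 64% in 270k. Of 30 genes of hepatocyte function 4 had a peak against 24, and of 20 genes of CTCF, cohesin and related factors 2 had a peak against 17. The 4 were Alb (albumin), Apob (an apolipoprotein), Hpx (hemopexin) and Tat (tyrosine aminotransferase), and the 2 were Pds5b, a cohesin regulator, and Top2b, a topoisomerase. Each of these peaks was one-position and none lay near a pair. Apob had 6 tags in 2 peaks against 57 tags in 14 peaks, and Hpx had 2 tags against 0. Peak counts of genes rise with their length, which was not taken into account.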

How the data were processed

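CTCF ChIP-exo 5.0 was measured in 7 mouse libraries, of which those of 27k and 270k liver cells are compared and the others serve as references. The authors sequenced 2 reads of 40 bp per fragment, and kept unique alignments without PCR duplicates. The submitters' processing notes name BWA 0.7.9a, bcl2fastq 2.16 and the build mm10; the peak caller's settings were not given in the sources used here. The authors deposited peak lists of 21 bp peaks with a tag count per peak (at least 2, not normalized) and, in another column, the standard deviation of the positions of its tags, in bp. Total tags per library ran from 35594 to 6592538, and the precision of each share is given by its interval.

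From the deposited counts, tags and peaks were summed by place, class and distance with Python 3.11.15, numpy 2.4.6, pandas 2.3.3 and scipy 1.17.1. The pairing of peaks, the matching of peaks on the same strand and the sums of tags in windows were tested on simulated data. The other steps were not. Distances are between peak centres, and background values are the mean after moving peaks by 5 kb in both directions. Gene and promoter positions came from RefSeq (GRCm38.p6, the coordinates of mm10), without exons. No test between conditions was possible with 1 library a side. The members and gene lists were chosen with earlier results of these data known. Named outside the set-aside places were the pairs of 27k cells (up to 20) and the 10 spread and 10 one-position peaks with most tags. Also named were the 10 pairs of 2.7M cells with most tags of 27k, and up to 10 promoters near such pairs. The gene given is not always the nearest. For the pair 25724 bp from Col19a1, the closer Gm10222 and Gm10925 were passed over. No genome sequence was used, so sequence outside promoters is not analysed here. The alternatives are those listed under the limits.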

Additional observations from a re-analysis of the deposited data

How the results depend on the processing

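Most values moved by more than their counting interval under the alternatives tried. One comparison reversed. The share of tags in the set-aside places was 12.5 points higher in 27k than in 270k cells, and -12.6 points when 270k cells were thinned to the same tags, an alternative chosen after seeing the data. The share of tags in the set-aside places, 36.0%, became 37.1% with 10 or more peaks per dense bin, 23.8% for peaks in place of tags and 90.1% for spread peaks only. The ratio of tags on the remaining chromosomes, 21.5, became 18.0 with all places kept in, 22.6 for peaks, 29.3 with each one-position peak as 1 tag and 77.9 for spread peaks. The one-position share, 93.9%, became 96.6% and 96.4% with at least 3 and 5 tags, 72.8% with all places and 94.5% without the 6 crowded bins, an alternative chosen after seeing the data. The share of peaks found in 270k cells, 3.23%, was 0.288% at 0 bp, 5.78% at 50 bp, 28.1% for spread peaks, 21.6% with all places and 2.54% without the crowded bins. In the other direction, 0.144% became 0.0128% at 0 bp, 0.370% at 50 bp, 0.601% for spread peaks and 0.221% with at least 3 tags. The share near a pair, 10.8%, was 9.20% within 50 bp, 12.3% within 200 bp, 9.26% with pairs of 10 or more tags, 44.0% for spread peaks and 9.999% without the crowded bins. The 22 pairs of 27k cells became 632 with all places and 5 without the crowded bins. The share at gene ends, 7.59%, was 4.21% within 500 bp, 25.6% within 5 kb and 14.3% for peaks near a pair. Spread peaks and wider or narrower windows hold other peaks by construction. No paired analysis was possible because each cell number had 1 library. At 2 tags per peak and 35594 tags, a site missed in the smallest library cannot be told from an unbound one.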

Other observations

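Depth was matched by one further description, chosen after seeing the data. The peaks of 270k cells were given the tags expected if 12.6% of its tags were kept at random and peaks under 2 tags dropped, which brings the library to the 35594 tags of 27k cells. It would then hold 11140 peaks. The set-aside places would hold 48.5% of its tags, against 36.0% in 27k cells, with 3.09% against 0.691% on chrM, 16.2% against 11.8% on unplaced contigs and 29.3% against 23.5% in the dense bins. On the remaining chromosomes 26.4% of its peaks would lie near a pair of 2.7M cells, against 10.8%. Of its peaks there, 1894 would come from peaks that were spread before thinning, against 423 spread peaks in 27k cells. Some of the 1894 may then have all tags at 1 position. The calculation treats tags as independent, which one-position peaks may not be, and it was not tested against a second library.

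Of the 79 peaks of 27k cells on chrM, 54 lay on the reverse strand (68.4%, 57.5 to 77.6). In 270k cells 578 of the 1169 peaks of chrM did (49.4%, 46.6 to 52.3), and over all places of 27k cells 4576 of 9110 (50.2%).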
